A study of Mus musculus with 4 samples.

Results

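The genes described here are the 31 enzymes and transporters of glycolysis and the pentose phosphate pathway named in a fixed list of symbols, out of 23282 gene rows in each count table. All 31 had a row. They were measured by transcript-end sequencing in 4 libraries of primary cultures from C57BL/6J mice, labelled as pancreatic acinar cells, the enzyme-secreting cells of the exocrine pancreas. The ERRγ group (2 libraries) received an adenovirus that encodes estrogen-related receptor γ, and the GFP group (2 libraries), which served as the control, received one that encodes green fluorescent protein. Both viruses were given at a multiplicity of infection of 100 and the cells were taken after 36 h. All 4 cultures shared Waymouth's medium with 2.5% serum, 0.25 mg/ml trypsin inhibitor and 25 ng/ml recombinant human EGF. The labels name no promoter for the transgenes and do not say whether a group's libraries are biological repeats; p-values therefore cover the spread of these samples alone, which may be technical.

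Glycolysis takes glucose through hexokinase, phosphofructokinase and the lower chain from triose phosphate to pyruvate, and yields ATP and NADH in the cytosol. The pentose phosphate pathway branches off at glucose 6-phosphate: its oxidative arm yields NADPH, and its non-oxidative arm interconverts sugar phosphates and provides ribose for nucleotides. ERRγ, encoded by Esrrg, is an orphan nuclear receptor best known for driving genes of oxidative metabolism, and several glycolytic genes are also known as targets of the hypoxia-inducible factors. Pancreatic acinar cells spend much ATP on protein synthesis and secretion.

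The promoters of a few members are shown first, because the results below turn on 2 sets of genes: enzymes that stood higher in both ERRγ libraries (Tpi1, Pgk1) and genes that stood high in ERRγ library 2 alone (Slc2a1, Hk2, Pfkfb3). The sequences are from RefSeq on GRCm38.p6, written 5′ to 3′ on the gene's strand, and give the 250 bases before the annotated start. For Tpi1 the first 20 transcribed bases follow. Tpi1 was taken by a rule, as the only gene past the test threshold with AAGGTCA in its window, and the other 4 genes were chosen after their values were seen. The letters AAGGTCA, the core site bound by estrogen-related receptors, are in capitals for Tpi1, and ACGTG, the core shared by hypoxia-response elements and E-boxes, for the others. Both strands were searched, so TGACCTT and CACGT mark matches on the opposite strand, and the palindrome CACGTG matches on both. The stretches lie at chr6:124814139-124814408, minus strand (Tpi1), chrX:106186850-106187099, plus strand (Pgk1), chr4:119108495-119108744, plus strand (Slc2a1) and chr6:82774455-82774704, minus strand (Hk2). The 2 RefSeq starts of Pfkfb3 gave chr2:11553930-11554179, minus strand (start 1) and chr2:11502091-11502340, minus strand (start 2).
Tpi1: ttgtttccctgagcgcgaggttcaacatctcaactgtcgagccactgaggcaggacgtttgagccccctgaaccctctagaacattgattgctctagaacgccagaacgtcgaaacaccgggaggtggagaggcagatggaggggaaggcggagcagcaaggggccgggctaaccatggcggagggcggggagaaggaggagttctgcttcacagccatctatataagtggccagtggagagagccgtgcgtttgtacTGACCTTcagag
Pgk1: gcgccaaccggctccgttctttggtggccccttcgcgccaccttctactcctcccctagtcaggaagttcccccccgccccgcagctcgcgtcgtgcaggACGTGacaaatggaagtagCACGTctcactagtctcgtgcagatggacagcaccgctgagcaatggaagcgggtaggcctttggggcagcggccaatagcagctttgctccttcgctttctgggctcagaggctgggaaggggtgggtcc
Slc2a1: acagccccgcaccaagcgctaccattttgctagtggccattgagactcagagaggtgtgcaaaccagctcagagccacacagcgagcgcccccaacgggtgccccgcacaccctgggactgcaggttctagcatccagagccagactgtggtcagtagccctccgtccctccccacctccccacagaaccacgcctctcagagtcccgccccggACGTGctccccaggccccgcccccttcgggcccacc
Hk2: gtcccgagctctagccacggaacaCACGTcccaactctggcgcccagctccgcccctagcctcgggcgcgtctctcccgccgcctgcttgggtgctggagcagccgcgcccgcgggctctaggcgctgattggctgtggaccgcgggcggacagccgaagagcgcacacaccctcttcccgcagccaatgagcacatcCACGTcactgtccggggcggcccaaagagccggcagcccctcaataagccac
Pfkfb3 start 1: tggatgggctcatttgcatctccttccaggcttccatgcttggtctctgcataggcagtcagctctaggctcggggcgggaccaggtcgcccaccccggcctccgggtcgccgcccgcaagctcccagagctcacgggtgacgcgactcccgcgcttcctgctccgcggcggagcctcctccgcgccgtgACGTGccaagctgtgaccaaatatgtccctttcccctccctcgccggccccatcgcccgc
Pfkfb3 start 2: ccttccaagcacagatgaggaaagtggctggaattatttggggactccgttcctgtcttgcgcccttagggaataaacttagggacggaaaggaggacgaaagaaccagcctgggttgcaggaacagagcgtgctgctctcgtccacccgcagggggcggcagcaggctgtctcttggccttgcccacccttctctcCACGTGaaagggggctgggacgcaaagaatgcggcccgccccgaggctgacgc

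Windows from 250 bases before to 50 bases after a start were found for 29 of the 31 members, all but Slc2a3 and Slc2a4. AAGGTCA was in 3 of the 46 members' windows (6.52%), one each of Pfkfb1, Tpi1 and Eno1, against 4.72% of all 32851 windows. By gene it was 10.3% against 5.38%. The 29 members held 46 windows, while 27025 genes in all held 32851. A gene with more windows has more places for a match, so shares by gene are not on equal terms. In Tpi1 AAGGTCA lay on the opposite strand, with its first printed base 9 bases into the transcript. ACGTG was in 17 of the 46 windows (37.0%), against 19.6% of all windows. Some genes hold several windows, which can overlap as in Aldoa, so windows are not independent units. By gene the share was 13 of 29 (44.8%), against 21.8% of all genes. These 13 were Slc2a1, Hk1, Hk2, Pfkm, Pfkfb2, Pfkfb3, Aldoa, Aldoc, Gapdh, Pgk1, Pgam1, Pkm and G6pdx. In Slc2a1 the match began 36 bases before the start, in Hk2 at 226 and 52 bases, and in Pgk1 at 150 and 131 bases. A match is a description of letters and not of a bound site.

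Totals were 10480878 and 10645277 counts for ERRγ and 10105604 and 11012351 for GFP, so that 3 counts in a library correspond to 0.268 to 0.307 CPM (counts scaled to library size). The 31 members together took 0.573% and 0.851% of the counts of ERRγ libraries 1 and 2, beside 0.428% and 0.456% for GFP. The receptor gene Esrrg reached 1453 and 12994 counts in ERRγ libraries 1 and 2, from 86 and 107 in the control pair (adjusted p = 0.0109, log2 fold change 6.26 ± 1.00 SE). Both ERRγ libraries were above both GFP libraries, and library 2 held about 9.9 times the CPM of library 1, so each ERRγ library is given on its own throughout. Markers of acinar cells were low: the 13 listed acinar genes took 0.00973% to 0.0109% of counts with ERRγ and 0.00513% to 0.0108% with GFP, and Ptf1a had no count. The 7 duct genes made up 0.287% and 0.320% for ERRγ, beside 0.357% and 0.364% for GFP, so their sum was lower in both ERRγ libraries. Taken singly, 4 of the 7 overlapped between the groups. The median log2 ratio of the 7 to the GFP mean was −0.27 in ERRγ library 1 and 0.145 in library 2. Among these markers the keratin gene Krt7 fell (adjusted p = 0.0285, log2 fold change −0.65), while the chloride channel gene Cftr rose (adjusted p = 0.0444, log2 fold change 1.25). Of 11 acinar genes tested only 1 rose, the trypsinogen gene Prss2 (adjusted p = 0.00905, log2 fold change 2.78), and 0 fell. Only 3 of the 11 had a positive log2 fold change, and their median was −0.13. The part of the duct and acinar markers in the members' results was not tested. The ribosomal RNA row Rn45s stood at 88640 and 116900 CPM beside 148800 and 102900 CPM, so the groups overlapped. The values are those of cultures low in acinar transcripts, and since these are bulk samples, fewer cells of a type and less RNA per cell cannot be told apart.

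With ERRγ, 5 glycolytic genes rose, each between 1.87-fold and 2.93-fold. They were Hk1, which encodes the first enzyme of the pathway, and 4 consecutive genes of the lower chain, Tpi1, Gapdh, Pgk1 and Pgam1. No pentose phosphate gene passed the test. Of the 31 members, 28 had enough counts to be tested with edgeR's quasi-likelihood test over 13070 rows. Those 5 of 28 compare with 5.06% of all rows tested. By edgeR no member fell, against 1.78% of all rows. None had an unadjusted p under 0.05 for a fall with edgeR, DESeq2 or limma-voom, and 15 had one for a rise with edgeR. No share of all rows was taken at that unadjusted cut, so the 15 cannot be set against the 5.06%. The median log2 fold change of the 28 was 0.73, beside −0.0071 over all rows tested, and 25 of the 28 were positive, beside 49.2% of all rows. Slc2a3 passed the filter on low counts through the ERRγ libraries alone, so it could hardly have shown a fall. The GFP pair alone would not have carried Pfkfb4 (2 and 14 counts), Eno2 (13 and 9) or Pfkfb1 (24 and 10) past that filter, which scales with library size. Slc2a3, Pfkfb4 and Eno2 are among the positive members and among the non-overlapping ones counted next. Both ERRγ libraries lay above both GFP libraries for 19 of the 28 (27.4% of all rows), and both lay below for Pgls alone (26.6% of all rows). The list was drawn up with earlier results of these data known, so its upward lean is not independent evidence of a direction.

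**Figure D1:**
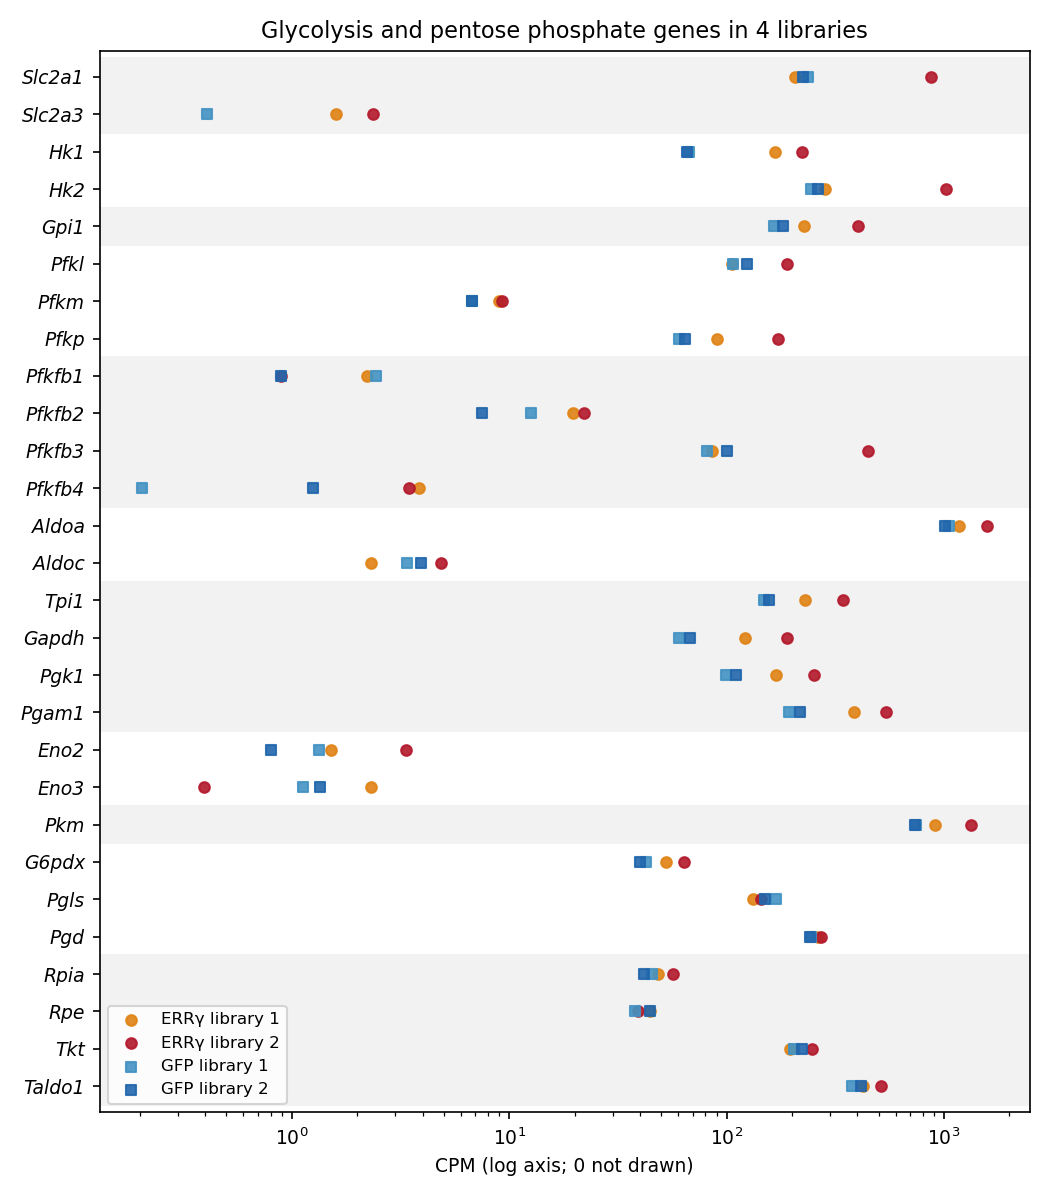
Level of each of the 28 tested members in the 4 libraries, as CPM on a log axis; each point is 1 library, a count of 0 is not drawn, and grey and white bands mark steps of the pathway from glucose transport (top) to the non-oxidative pentose phosphate arm (bottom). Slc2a1, Hk2 and Pfkfb3 are high in ERRγ library 2 (867, 1024 and 448 CPM) while ERRγ library 1 lies near the GFP pair, whereas for Hk1 and Tpi1 to Pgam1 both ERRγ libraries lie above both GFP libraries.

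**Figure D2:**
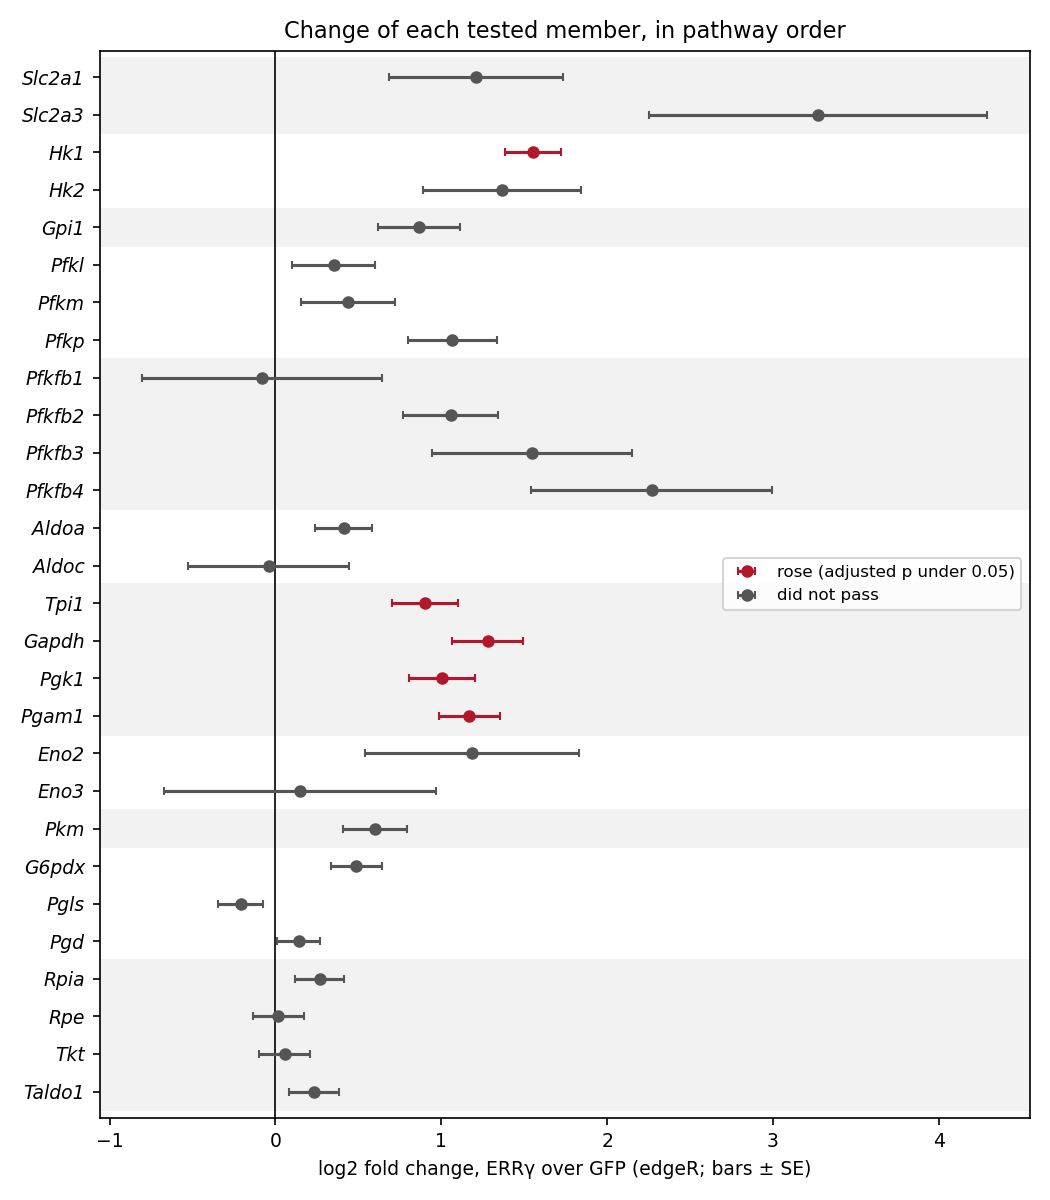
Log2 fold change of ERRγ over GFP for each tested member, in pathway order, with bars of ± SE from the edgeR fit of all 4 libraries. Hk1, Tpi1, Gapdh, Pgk1 and Pgam1 passed the threshold, with values from 0.90 (Tpi1) to 1.55 (Hk1), and the 7 pentose phosphate genes at the bottom lie between −0.21 and 0.49.

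Within the lower chain, the 4 members from triose phosphate to 2-phosphoglycerate all passed, against 5.06% of all rows. Further down the chain, the tested enolase genes and Pkm did not pass in the main edgeR fit, and Eno1 was too low to test. Pkm did pass with DESeq2 (adjusted p = 0.022) and in edgeR with library totals (adjusted p = 0.0413). Where the stretch of called genes ends therefore depends on the fit. Tpi1, triose phosphate isomerase (chromosome 6, 124810586 to 124814296, minus strand, GRCm38), stood at 228 and 345 CPM in ERRγ libraries 1 and 2 and at 149 and 158 CPM with GFP. Both ERRγ libraries were higher, library 2 more so, and the rise was 1.87-fold (adjusted p = 0.0360, log2 fold change 0.90 ± 0.20 SE). Gapdh, which encodes the dehydrogenase that makes glycolytic NADH (chromosome 6, 125161715 to 125166467, minus strand), had 121 and 190.4 CPM against 60.3 and 68.0 CPM. It rose 2.43-fold, with no overlap between the groups (adjusted p = 0.0136, log2 fold change 1.28 ± 0.22 SE). Pgk1, the phosphoglycerate kinase that makes the first ATP of the pathway (chromosome X, 106187100 to 106203699, plus strand), had 168 and 252 CPM against 99.1 and 110.1 CPM, a 2.01-fold rise (adjusted p = 0.0250, log2 fold change 1.01 ± 0.20 SE). Pgam1, phosphoglycerate mutase (chromosome 19, 41911923 to 41918660, plus strand), had 385 and 539 CPM against 194 and 217 CPM. It rose 2.25-fold, and the lowest ERRγ value was well above the highest GFP value (adjusted p = 0.0106, log2 fold change 1.17 ± 0.18 SE). Tpi1 and Gapdh overlap the coding genes Spsb2 and Iffo1 on the opposite strand, and whether the counting used strand is not given in the sources used here. Gapdh and other genes of this chain have near-identical processed copies elsewhere in the genome, so reads may have been shared or dropped and their levels are uncertain.

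The hexokinases, which trap glucose as glucose 6-phosphate, differed between the isozymes. Hk1, the housekeeping form (chromosome 10, 62268855 to 62379908, minus strand), stood at 167 and 222 CPM in ERRγ libraries 1 and 2 and at 67.1 and 65.5 CPM with GFP. It rose 2.93-fold (adjusted p = 0.00267, log2 fold change 1.55 ± 0.17 SE), and was 2.51 and 3.35 times the GFP mean in the ERRγ libraries taken singly. Hk2, the inducible form (chromosome 6, 82725025 to 82774454, minus strand), stood at 285 and 1024 CPM against 244 and 263 CPM. ERRγ library 1 was just above the GFP pair, at 1.12 times their mean, while library 2 was at 4.04 times, and the pooled difference did not pass (adjusted p = 0.137, log2 fold change 1.37 ± 0.48 SE). Hkdc1, a hexokinase-like gene, had 6 counts in ERRγ library 1 and none in the others, and was too low to test.

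Of the glucose transporters, Slc2a1 (GLUT1, chromosome 4, 119108711 to 119137983, plus strand) carried nearly all counts. It stood at 206 and 867 CPM in ERRγ libraries 1 and 2 and at 238 and 226 CPM with GFP. ERRγ library 1 was below both GFP libraries and library 2 was 3.74 times the GFP mean, so the groups overlapped and the pooled difference did not pass (adjusted p = 0.218, log2 fold change 1.21 ± 0.53 SE). Slc2a3 (GLUT3) was sparse, at 18 and 24 counts beside 4 and 0 with GFP (adjusted p = 0.102). The insulin-regulated transporter gene Slc2a4 (GLUT4) was too low to test, at 8 and 2 counts beside 18 and 7.

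At the committed step, the phosphofructokinase-1 genes did not pass. Pfkp, the platelet form (chromosome 13, 6579768 to 6648777, minus strand), came nearest, with 90.1 and 172 CPM in ERRγ libraries 1 and 2 and 60.2 and 64.7 CPM with GFP (adjusted p = 0.0573, log2 fold change 1.07 ± 0.27 SE). Both ERRγ libraries were above the GFP pair, at 1.44 and 2.75 times its mean. Pfkl, the liver form, had 106 and 189.6 CPM against 107 and 124 CPM, so that ERRγ library 1 lay just below both GFP libraries (adjusted p = 0.447, log2 fold change 0.35). Pfkm, the muscle form, had 101 and 94 counts against 66 and 75, higher in both ERRγ libraries but short of the threshold (adjusted p = 0.402, log2 fold change 0.44). Pfkp overlaps Pitrm1, and Pfkm overlaps Senp1, on the opposite strand. Of the other members, Pfkfb2 overlaps Gm29427, and Pgls overlaps Fam129c, on the same strand. Further overlaps on the opposite strand are those of Pfkfb1 (Apex2), Pfkfb2 (Yod1), Aldoa (Fam57b), G6pdx (Ikbkg) and Rpe (Kansl1l).

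The PFKFB enzymes set the level of fructose 2,6-bisphosphate, the strongest activator of phosphofructokinase-1. Pfkfb3, the form with the highest kinase to phosphatase balance (chromosome 2, 11471433 to 11554077, minus strand), showed the widest gap between the ERRγ libraries among members with a mean of at least 5 CPM. It stood at 85.5 and 448 CPM with ERRγ and at 81.6 and 100.7 CPM with GFP. Library 1 lay between the GFP libraries and library 2 was 4.92 times their mean (adjusted p = 0.176, log2 fold change 1.55 ± 0.61 SE). Pfkfb2 had 220 and 224 counts against 123 and 84 (adjusted p = 0.0675, log2 fold change 1.06) and Pfkfb4 had 43 and 35 counts against 2 and 14 (adjusted p = 0.107, log2 fold change 2.27). For both of these the ERRγ libraries were close to each other and above the GFP pair, which itself differed by more than 1.5-fold. Pfkfb1 had 25 and 9 counts against 24 and 10, and the groups overlapped.

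At the remaining glycolytic steps, isomerase, aldolase, enolase and pyruvate kinase, no member passed in the main edgeR fit. Gpi1, which converts glucose 6-phosphate to fructose 6-phosphate, had 228 and 403 CPM against 165 and 182 CPM (adjusted p = 0.0819, log2 fold change 0.86). Aldoa, the main aldolase gene, had 1174 and 1584 CPM against 1058 and 1015 CPM (adjusted p = 0.205, log2 fold change 0.41). Pkm, which encodes pyruvate kinase M (chromosome 9, 59656368 to 59679375, plus strand), had 908 and 1335 CPM against 745 and 737 CPM (adjusted p = 0.110, log2 fold change 0.60 ± 0.19 SE). In all 3 genes ERRγ library 1 was above both GFP libraries and library 2 higher still. The tissue-specific forms Aldoc, Eno2 and Eno3 had 4 to 49 counts per library and did not pass. Eno1, the main enolase gene, was listed at 0 in both ERRγ libraries and at 2 and 0 counts with GFP. The symbol Eno1b, which GENCODE M21 lists as a retrogene of this family, stood on 2 rows with 1805 to 2179 counts with GFP and 2605 to 3882 with ERRγ. The 2 Eno1b rows had log2 fold changes of 0.63 and 0.68 and did not pass (adjusted p = 0.0979 and 0.102). They were looked at after the Eno1 values were seen, and how reads of near-identical copies were assigned is not given in the sources used here.

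In the pentose phosphate pathway, the tested values lay closer to GFP than in glycolysis: the median log2 fold change was 0.14 over 7 genes, beside 1.06 over the 21 tested glycolytic genes. The gap was wider in ERRγ library 2. Against the GFP mean, the median log2 ratios were 0.105 beside 0.393 in ERRγ library 1 and 0.216 beside 1.26 in library 2. That difference between the arms was not tested. By edgeR none of the 7 rose or fell, with 1 gene at an unadjusted p under 0.05, and DESeq2 and limma-voom made no call either. G6pdx, glucose 6-phosphate dehydrogenase, which controls entry to the oxidative arm (chromosome X, 74409483 to 74429194, minus strand), was that gene. It stood at 52.7 and 63.4 CPM with ERRγ and 42.8 and 40.0 CPM with GFP (adjusted p = 0.100, log2 fold change 0.49 ± 0.15 SE). Pgd, the second NADPH-yielding dehydrogenase, had 263 and 272 CPM against 244 and 241 CPM, a narrow but non-overlapping gap (adjusted p = 0.568, log2 fold change 0.14). Pgls, the lactonase between them, lay lower with ERRγ, at 132 and 144 CPM against 169 and 150.4 CPM (adjusted p = 0.406, log2 fold change −0.21). The 4 genes of the non-oxidative arm, the isomerase gene Rpia, the epimerase gene Rpe and the transferase genes Tkt and Taldo1, had log2 fold changes between 0.018 and 0.27. Rpia and Taldo1 were higher in both ERRγ libraries, and Rpe and Tkt overlapped.

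Taken one by one against the same GFP pair, the ERRγ libraries differed for glycolysis. In ERRγ library 1, 8 of the 28 tested members were at least 1.5-fold above the GFP mean (12.0% of all rows), and in library 2 it was 18 of 28 (14.8% of all rows), on the scale of log2 of CPM plus 0.5. The median member was 0.34 (log2) above the GFP mean in library 1 and 0.97 in library 2. Over all rows the same medians were −0.0076 and −0.019. Library 2 exceeded library 1 by at least 1.5-fold in 10 members (7.77% of all rows), and the reverse held for Pfkfb1 and Eno3 (10.7% of all rows). The GFP libraries differed from each other by that much in 4 members, Slc2a3, Pfkfb1, Pfkfb2 and Pfkfb4 (12.6% of all rows).

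The widest ratios of ERRγ library 2 to library 1 were 5.25 for Pfkfb3, 4.21 for Slc2a1, 3.60 for Hk2 and 1.91 for Pfkp, among members with a mean of at least 5 CPM. These ratios compare 2 libraries and have no replicate check. For the 5 genes that rose the ratio ran from 1.33 for Hk1 to 1.57 for Gapdh. When ERRγ library 2 was left out, so that the spread came from the GFP pair alone, 8 members passed, against 7.19% of rows that rose. They were Hk1, Pfkp, Pfkfb2, Pfkfb4, Tpi1, Gapdh, Pgk1 and Pgam1, and the log2 fold changes of the lower chain were 0.57 (Tpi1), 0.92 (Gapdh), 0.68 (Pgk1) and 0.90 (Pgam1). When ERRγ library 1 was left out, 16 passed, against 11.8% of rows, among them Slc2a1 (1.90), Hk2 (2.01) and Pfkfb3 (2.30). Both fits assume that the single ERRγ library varies like the GFP pair.

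**Figure D3:**
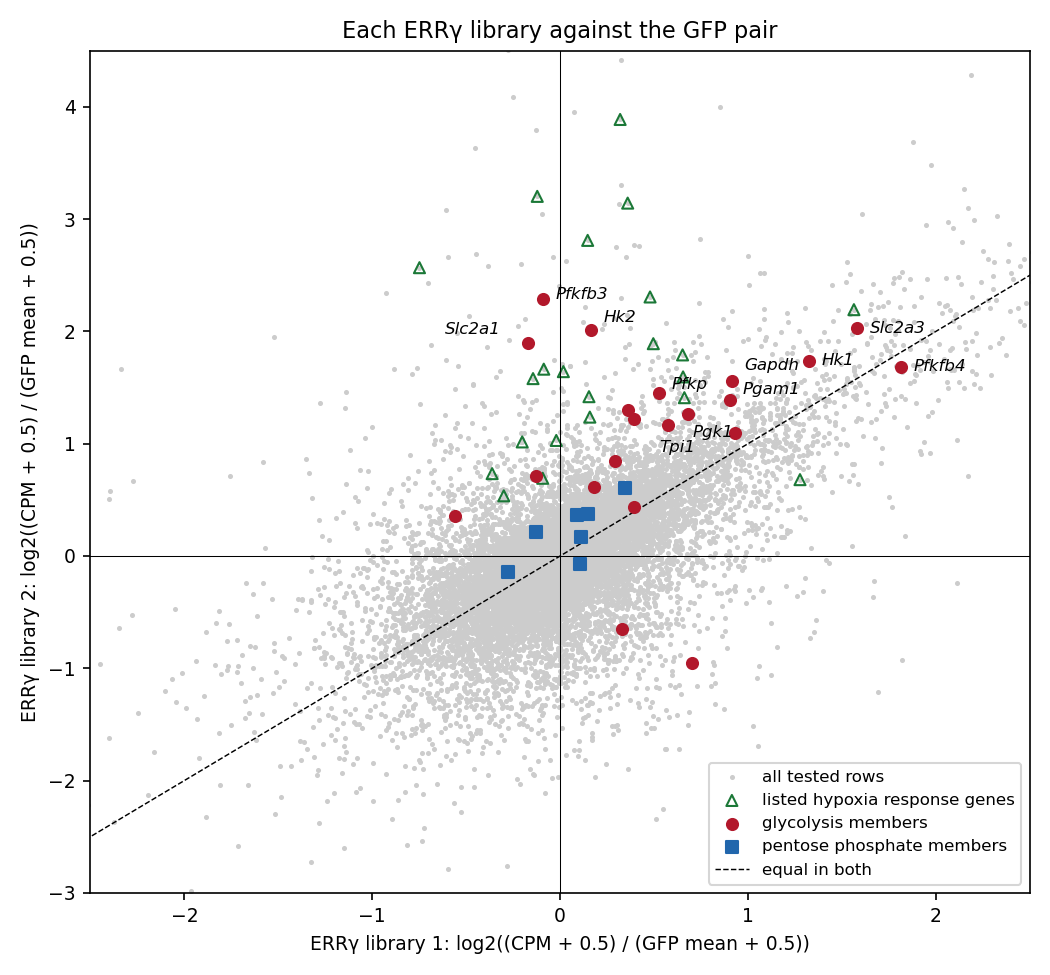
Each ERRγ library against the GFP mean, as log2 of CPM plus 0.5, with library 1 on the x axis and library 2 on the y axis; grey points are all 13070 rows tested (rows beyond the axes are not drawn), and both axes share the GFP libraries. Hk1 (1.32 and 1.74 in ERRγ libraries 1 and 2), Gapdh (0.914 and 1.56) and Pgam1 (0.905 and 1.39) are positive on both axes and above the dashed line of equal values. Slc2a1, Hk2 and Pfkfb3 lie high on the y axis near 0 on the x axis, as do many of the 22 listed hypoxia response genes. The pentose phosphate genes lie near the origin.

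Listed hypoxia response genes outside glycolysis moved with the split between the ERRγ libraries. Of 22 such genes, 21 were at least 1.5-fold higher in ERRγ library 2 than in library 1 (7.77% of all rows). This list was drawn up with earlier results of these data known, so that count is not independent evidence of a split. The summed level of the 22 was 2145 CPM in ERRγ library 1, 6718 CPM in library 2 and 1875 and 2139 CPM with GFP. Adm, which encodes adrenomedullin, stood at 24.2 and 292 CPM against 17.9 and 20.6 CPM, and the prolyl hydroxylase gene Egln3 at 13.0 and 135 CPM against 14.4 and 14.0 CPM. The transcript of the hypoxia-inducible factor subunit itself, Hif1a, was at 196 and 247 CPM against 203 and 223 CPM. By edgeR 3 of the 22 rose (Higd1a, Fam162a and Stc2), against 5.06% of rows. Esrrg and the hypoxia response genes were both higher in library 2, and their part in the levels of Slc2a1, Hk2 and Pfkfb3 there was not tested.

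A transcript-end library reads each transcript about once, so shares of counts among isozymes were taken without scaling by length, with 95% Wilson intervals that cover counting error only. Hk1 made up 36.9% (35.6 to 38.2) of hexokinase counts in ERRγ library 1 but 17.8% (17.2 to 18.5) in library 2, against 21.5% (20.1 to 23.0) and 19.9% (18.7 to 21.3) with GFP. The ERRγ libraries thus lay on either side of the GFP pair. Pfkp made up 43.9% (41.9 to 46.0) and 46.3% (44.8 to 47.9) of phosphofructokinase-1 counts with ERRγ, beside 34.5% (32.3 to 36.8) and 33.1% (31.2 to 35.1) for GFP. Here both ERRγ libraries were above both GFP libraries. Pfkl held the largest share in every library, 51.7% and 51.1% with ERRγ against 61.6% and 63.4%, and Pfkm held 2.51% to 4.39%. Pfkfb3 made up 76.9% and 94.4% of PFKFB counts with ERRγ, beside 84.3% and 91.2% for GFP. Differences in these shares between the groups were not tested.

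**Figure D4:**
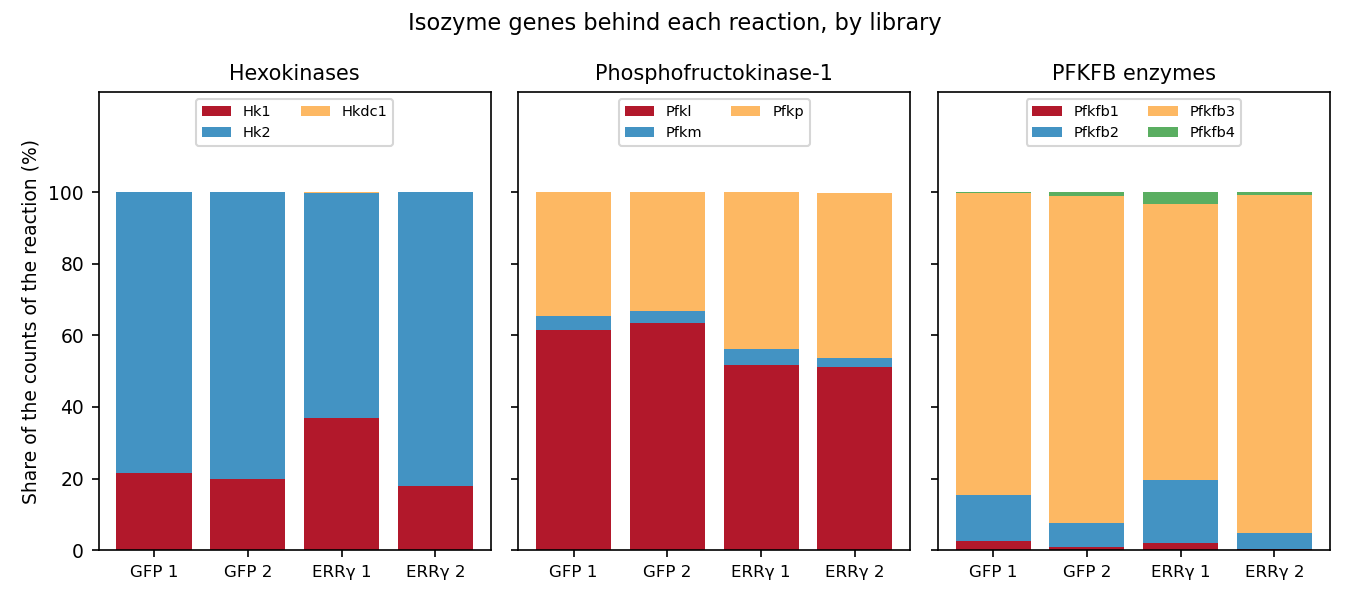
Share of the counts of hexokinase, phosphofructokinase-1 and PFKFB genes carried by each isozyme gene, in percent, with 1 stacked bar per library. The Pfkp share is 43.9% and 46.3% with ERRγ and 34.5% and 33.1% with GFP, while the Hk1 share is highest in ERRγ library 1 (36.9%) and lowest in ERRγ library 2 (17.8%).

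Other genes of the pathways, from a list of 41 symbols, had 40 rows and 30 with enough counts to test, and 2 of the 30 rose, against 5.06% of all rows. Shpk, sedoheptulokinase, which phosphorylates a sugar whose phosphate enters the non-oxidative arm, was at 81 and 69 counts beside 10 and 17 with GFP, a 5.44-fold rise (adjusted p = 0.0169, log2 fold change 2.44 ± 0.43 SE). Tigar, a phosphatase that lowers fructose 2,6-bisphosphate, stood at 42.1 and 46.9 CPM against 23.2 and 28.4 CPM and rose 1.72-fold (adjusted p = 0.0322, log2 fold change 0.79 ± 0.17 SE). In both genes the ERRγ libraries were close to each other, with library 2 at 0.943 and 1.11 times library 1. By edgeR and limma-voom no listed gene fell (1.78% and 1.84% of all rows), and 2 had an unadjusted p under 0.05 in that direction with either tool. With DESeq2 2 fell (2.67% of rows). The median log2 fold change of the 30 was 0.037, so the wider list sat near the median of all rows.

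The 5 genes that rose also did so in each other fit of all 4 libraries. DESeq2 added Gpi1, Pfkp, Pfkfb2 and Pkm. With no filter on low counts the added members included Slc2a1 and Pfkfb3, whose groups overlapped. Their SE in that fit was 0.163 and 0.171, beside 0.525 and 0.605 in the main fit. Members that rose numbered 5 with RLE scaling (5.02% of rows), 8 with library totals (5.28%), 14 with no filter (7.11%), 5 above a mean of 5 CPM (5.64%), 9 with DESeq2 (6.22%), 5 with limma-voom (4.82%) and 7 with the replicate number as a block (5.94%). No member fell in these fits, in the same order against 1.78%, 1.29%, 4.13%, 2.25%, 2.67%, 1.84% and 2.41% of rows, or when a library was left out (8.13% and 4.72% without ERRγ library 1 or 2, 0.0514% and 0.147% without GFP library 1 or 2). Leaving out a GFP library ended all 5 calls. Without GFP library 1 or GFP library 2 no member passed (0.676% and 0.872% of rows rose), and 9 had an unadjusted p under 0.05 in each of these edgeR fits. No share of all rows was taken at that unadjusted cut. With each library left out in turn, log2 fold changes ran from 1.33 to 1.74 for Hk1, 0.57 to 1.17 for Tpi1, 0.92 to 1.57 for Gapdh, 0.68 to 1.27 for Pgk1 and 0.90 to 1.39 for Pgam1.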

How the data were processed

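A Lexogen Quant-Seq kit was used on 500 ng of RNA, per the labels' protocols. Each of the 4 tables deposited by the authors holds unnormalized read counts by gene symbol. The submitters' processing notes name Bowtie2, edgeR and mm10, with no version. For the counter, annotation, strand setting and multiply matching reads, the choice is not given in the sources used here and could shift genes with near-identical or overlapping neighbours. The members and lists were chosen with earlier results of these data known.

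Of 17888 rows with a count, filterByExpr (minimum count 10) kept 13070. The group was tested over all of these with edgeR 4.0.16 (R 4.3.3; TMM scaling, glmQLFit and glmQLFTest, two-sided, 2 residual degrees of freedom) and Benjamini-Hochberg adjustment over all rows, with a threshold of 0.05. SE is the log2 fold change over the square root of F. CPM are on TMM library sizes (factors 0.952 to 1.071), and values of single libraries use a pseudocount of 0.5 CPM. Full statistics were given to members past the threshold and to the 4 with the widest ERRγ gap, and 9 rate-setting or reference members were named whatever they showed. Of the other pathway genes, up to 4 past the threshold were named. Alternatives were RLE scaling, library totals, no filter, a mean of at least 5 CPM, DESeq2 1.42.0, limma-voom (limma 3.58.1), the label number as a block, and leaving out each library. Replicates of both groups differed by more than counting error (chi-square per degree of freedom 22.6 with ERRγ, 14.3 with GFP). Positions are from GENCODE M21 (GRCm38, the assembly of mm10), and promoters from RefSeq. PCR reads carried no stated molecular identifiers, so counting error alone is covered by intervals and floors.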

Additional observations from a re-analysis of the deposited data

How the results depend on the processing

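Hk1, Tpi1, Gapdh, Pgk1 and Pgam1 passed in each of the 7 other fits of all 4 libraries (RLE scaling, library totals, no filter, the 5 CPM filter, DESeq2, limma-voom and the replicate block), and no member fell in any fit. The number of members that rose, 5, became 8 with library totals, 14 with no filter and 9 with DESeq2, and ran from 0 to 16 when a library was left out. With no filter 1271 genes rose and 738 fell, in place of 661 and 233; leaving out a library gave 92 to 1597 that rose and 7 to 1098 that fell. Of the other pathway genes, 1 rose with the 5 CPM filter and 0 to 4 when a library was left out; 2 fell with no filter, 2 with DESeq2 and 0 to 2 when a library was left out. The cause of these moves was not tested, except that left-out fits use fewer samples and the 5 CPM filter tests fewer genes: 6 of the 28 members lie under it and have no value there. The median log2 fold change of the members kept its sign and ran from 0.35 to 0.85 over the left-out fits.

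Directions turned for members near 0 or split between the ERRγ libraries. The log2 fold change of Eno3 (0.15) was −0.28 with limma-voom and −0.15 with the replicate block. Over the left-out fits it ran from −1.62 to 0.90 for Eno3, −0.17 to 1.90 for Slc2a1, −0.13 to 0.71 for Pfkl, −0.89 to 0.79 for Pfkfb1, −0.097 to 2.30 for Pfkfb3, −0.66 to 0.40 for Aldoc, −0.094 to 0.14 for Rpe and −0.13 to 0.22 for Tkt. The labels do not say that same-numbered libraries are pairs, so the main fit did not use the numbers. Same-numbered libraries did not deviate together (r = 0.0093 over tested rows). The acinar and islet marker lists were nonetheless lower in library 2 than in library 1 of both groups (median log2 difference −0.997 with ERRγ and −1.61 with GFP for acinar, −1.78 and −2.34 for islet), and whether same-numbered libraries share a source is not given in the sources used here. With the replicate block 7 members rose, Gpi1 and Pfkp in addition, with 776 genes up and 315 down. Depth limits Slc2a4, Hkdc1 and Eno1, which were too low to test.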

Other observations

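Among 14 listed regulators of glucose metabolism, 12 were tested and 2 rose by edgeR, Epas1 and Esrrg, against 5.06% of all rows. Esrrg is the gene the virus carries, so its rise was set by the design and adds nothing to that comparison. With DESeq2 2 of the 12 rose (6.22% of rows) and with limma-voom 1 (4.82%). Epas1, which encodes the hypoxia-inducible factor subunit HIF-2α, stood at 13.0 and 12.5 CPM in ERRγ libraries 1 and 2 and 4.91 and 5.48 CPM with GFP (adjusted p = 0.0334, log2 fold change 1.29 ± 0.28 SE). Its ERRγ libraries were level with each other, and its part in the members' levels was not tested. Myc, a transcription factor known to drive glycolytic genes, was at 64.2 and 53.3 CPM against 66.1 and 71.0 CPM (adjusted p = 0.423), and the related gene Mycn at 11.1 and 1.58 CPM against 11.2 and 15.9 CPM (adjusted p = 0.380). Txnip, an inhibitor of glucose uptake, was at 211 and 213 CPM against 225 and 290.4 CPM (adjusted p = 0.330).

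Targets of the antioxidant factor NRF2, which is known to raise pentose phosphate genes, showed no shared direction. By edgeR none of the 8 passed, against 5.06% of all rows that rose and 1.78% that fell, with 1 up and 3 down at an unadjusted p under 0.05. Limma-voom made no call (4.82% and 1.84% of rows), and with DESeq2 1 rose and 1 fell (6.22% and 2.67% of rows). The heme oxygenase gene Hmox1 was at 83.9 and 333 CPM with ERRγ and 130.3 and 101.5 CPM with GFP, high in ERRγ library 2 alone, while Nqo1 was at 22.1 and 16.6 CPM against 44.1 and 26.8 CPM.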
